A study of Mus musculus with 2 samples.

Results

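The genes described here are the 10 that set the pace of G1, the phase in which a T cell commits to copying its DNA. They are the D cyclins Ccnd1, Ccnd2 and Ccnd3, their kinases Cdk4 and Cdk6, the CDK inhibitors Cdkn1a, Cdkn1b, Cdkn2c and Cdkn2d, and Rb1, the protein the kinases act on. They were chosen by gene symbol and not by their values, though with earlier results of these data known. Every probe set (short probes read together as 1 transcript) annotated to exactly 1 of them was taken. That gave 27 of the 34945 probe sets that name exactly 1 gene, and 10 of 18193 genes.

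The study set T cells after contact with the RPE (retinal pigment epithelium, which nourishes the photoreceptors and is known to restrain T cells in the eye) against control T cells. Each group was 1 array of male mice of C57 BL/6 background, 6 weeks old. The control sample is titled as CD4 T cells. The exposed sample is titled as T cells, while its tissue label names primary cultured RPE. The labels used here name no exposure time and do not say how the T cells were stimulated or whether animals were pooled. Signals are the linear intensities as deposited. The floor, under which a signal is not read, was the median over all non-control probe sets, 15.9 on the control array and 16 on the exposed array. With 1 array per group there is no spread between samples and no test, so each value below stands for these 2 arrays only and their number limits the precision.

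In the textbook scheme, signals from the antigen receptor and cytokines induce D cyclins, which switch on Cdk4 and Cdk6. These kinases phosphorylate the retinoblastoma protein, which then releases E2F transcription factors that drive genes for DNA synthesis. INK4 inhibitors bind Cdk4 and Cdk6 directly, whereas Cip/Kip inhibitors bind cyclin-CDK complexes and block Cdk2 in particular. Lymphocytes are known to depend on Ccnd2 and Ccnd3 far more than on Ccnd1, and much of the control of p27, the product of Cdkn1b, is through protein breakdown, which an RNA array does not see.

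The transcripts of this set were nearly the same on both arrays. None of the 10 genes differed by 2-fold, the size counted as a difference here, against 1.06% of the 11021 genes compared, and none differed by 1.5-fold, against 6.99%. Those backgrounds are so low that 0 of 10 does not set these genes apart. The log2 differences, exposed minus control, ran from -0.23 for Rb1 to 0.39 for Cdkn1b, with a median of 0.05 beside -0.01 over all genes compared. Of the 10 genes 6 had a positive and 4 a negative difference, and 48.2% of all genes compared had a positive one. By the brightest probe set of each gene, all 10 lay within the central 95% of differences of genes of like signal. That range by its making leaves a fixed small share outside, 4.91% of all genes compared. Dimmer Ccnd2 probe sets at log2 differences of -0.35 and -0.31 lay below the range of the brightest one, -0.19 to 0.30. Of the 27 probe sets, 22 were above the floor on both arrays, 1 on the exposed array only and 4 on neither.

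**Figure D1:**
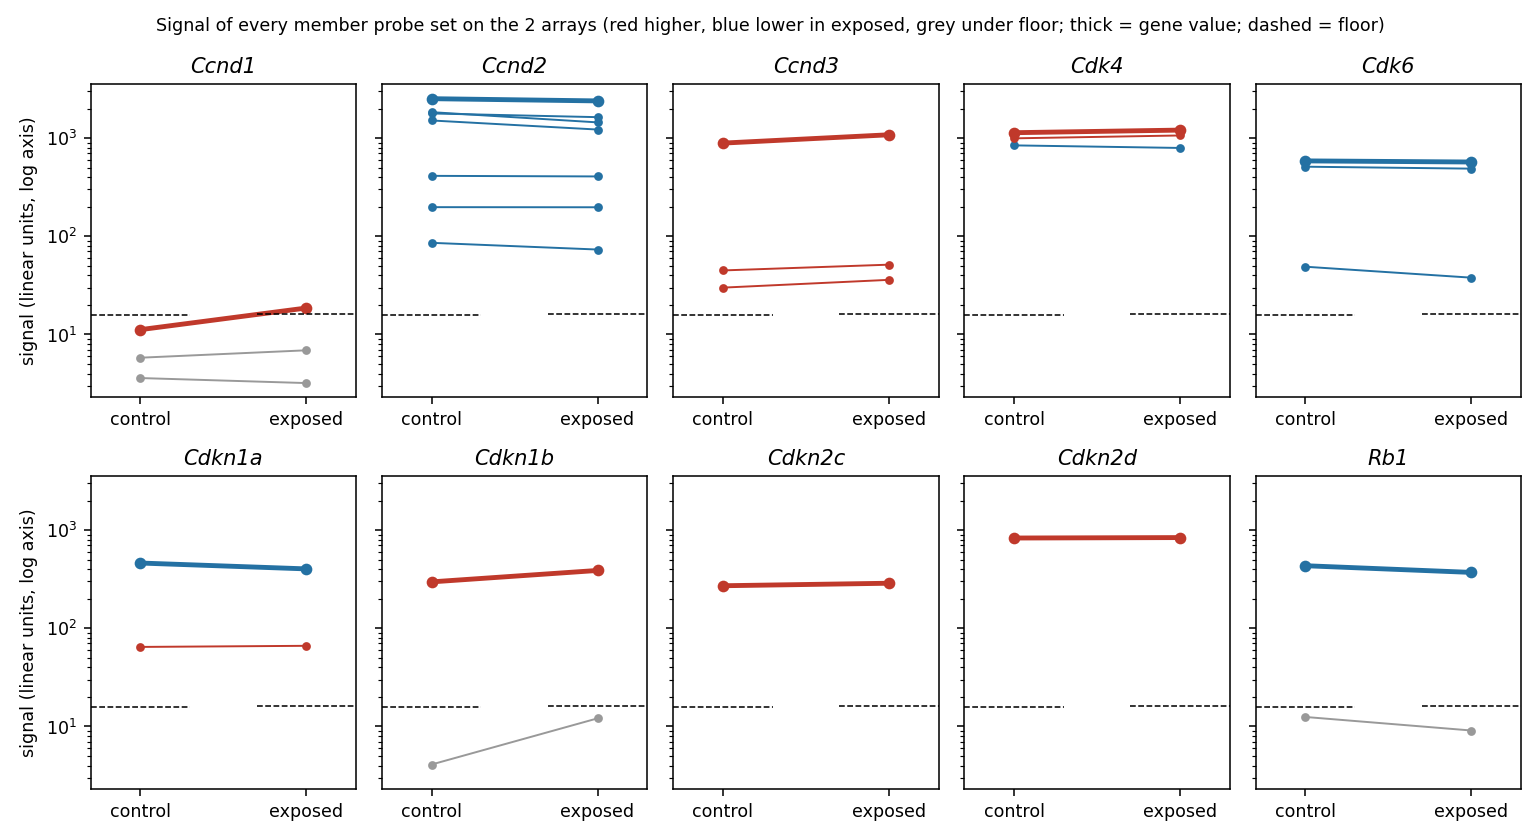
Signal of all 27 probe sets on the control and the RPE-exposed array, 1 panel per gene, on a log axis; each line joins the same probe set, red where it was higher and blue where it was lower in exposed cells, grey where it was under the floor (dashed) on both. The lines are close to level in most panels, all 7 of Ccnd2 slope down, all 3 of Ccnd3 slope up, and those of Ccnd1 lie under the floor except for 18.6 on the exposed array, just over it.

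The arrays were checked against the labels with marker lists before the members were read. T-cell markers were present on both arrays. All 12 with values were above the floor, 5 with a positive and 7 with a negative difference, with a median log2 difference of -0.01 (between 0.03 and -0.03 under other settings) and signals of 3073.4 in control and 3505.9 in exposed cells for Cd3d, a chain of the receptor complex. The adhesion receptor gene Cd2 gave 2329.9 and 2212.2. The costimulatory receptor gene Cd28 gave 1658.9 and 2319.2, 1.40-fold higher and outside its like-signal range of -0.19 to 0.30. The list's lowest difference was -0.51, for Trat1, named here after its value was seen. Cd4 gave 287 in control and 271.1 in exposed cells, with 1 of its 2 probe sets higher and 1 lower. The CD8 genes Cd8a (568.8 in control and 694.6 in exposed cells) and Cd8b1 (706.4 and 983.9) were also above the floor, so the control sample titled as CD4 T cells held CD8 transcripts. Both were higher in exposed cells, and Cd8b1, at a log2 difference of 0.48, was outside its like-signal range of -0.36 to 0.36. Above the floor too were 6 of 7 NK-cell markers, with a median of 0.13 and differences from -0.31 to 0.30. Among them were Gzma, a granzyme gene that cytotoxic T cells also use, at 3714.7 and 4122.5, and the receptor genes Klrk1 (373.5 and 460.6) and Klrc1 (251 and 277.1). The rest were dimmer. Eomes gave 101 and 108.9, Klra8 31.9 and 25.8, Ncr1 21.5 and 17.8, and Klra1, under the floor, 4.5 and 4.3. Of 18 RPE markers 14 were under the floor on both arrays, Rpe65 among them at 5.3 and 2.3. None was at 0, and their summed signal was 172.2 in control and 149 in exposed cells. The brightest were Serpinf1 (46 and 36), Pmel (15.2 and 18.3) and Mitf (17.3 and 15.2).

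Medians of the B-cell and of the macrophage and dendritic-cell markers lay further from 0 than that of the G1 set. So did those of the CD8 markers, at 0.38 over 2 genes, and of the NK-cell markers, at 0.13. B-cell markers were lower on the exposed array in 11 of the 12 above the floor, with a median of -0.60 and a summed signal over all 13 of 2638.1 in control and 1704.9 in exposed cells. Vpreb3 was 2.40-fold lower (64.4 and 26.8), Pou2af1 gave 572 and 298.6, Ms4a1 gave 618.5 and 443.6, and Cd79b gave 320.2 and 236.2. Macrophage and dendritic-cell markers were lower in 12 of 17, with a median of -0.35 and a summed signal over all 18 of 4552.2 and 3491.4. Most of that sum came from antigen-presentation genes, which B cells also express, so it cannot be assigned to macrophages and dendritic cells. The 5 higher markers, named here after their values were seen, were dim. Csf1r gave 29.1 and 31.4, and Ciita 24.6 and 26. Under the floor in control cells were Adgre1 (15.2 and 17.8), Fcgr1 (12.6 and 17) and Mrc1 (7.2 and 19.8). Lyz1 was at least 2.58-fold lower (41.3, and 7.5 under the floor), H2-Aa gave 1437.6 and 1080.8, H2-Eb1, like it an antigen-presentation gene, gave 707.7 and 457.1, and Cd74, the invariant chain, gave 1448.2 and 1250.3. No marker of either list was at 0. The G1 genes are used by dividing cells of many kinds. The part of these other cells, or of CD8 T cells, in the differences below was not tested. In such bulk RNA, fewer cells of a type and less RNA per cell cannot be told apart. The 3'/5' signal ratio of the array's Gapdh control probes was 0.801 in control and 0.799 in exposed cells.

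Of the D cyclins, Ccnd2 and Ccnd3 were above the floor by every probe set and lay on opposite sides of 0, and Ccnd1 was hardly detected. Ccnd2 encodes the D cyclin that antigen and interleukin-2 signals induce early in T cells. Its brightest probe set gave 2520 in control and 2392.3 in exposed cells, 1.05-fold lower in the latter. The others gave 1837.3 and 1445.7, 1781.8 and 1634.2, and 1511.7 and 1221.9 in control and exposed cells. The remaining 3 gave 412.6 and 407, 198 and 197.5, and 85.8 and 73.3. Every one of the 7 was thus lower on the exposed array, by log2 differences from -0.35 to -0.00, with a mean of -0.16 ± 0.14 (SD over 7 probe sets). These probe sets read the same RNA on the same arrays and are not replicates. Among the 38 genes with at least 7 such probe sets, 7.89% had all of them on 1 side. Among the 4 probe sets with signals over 1000 on both arrays the differences ran from -0.35 to -0.08, so the size of the Ccnd2 difference depends on the probe set read.

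Ccnd3, the D cyclin that thymocytes and proliferating lymphocytes need, was higher on the exposed array by every probe set. The brightest gave 889.1 in control and 1080.7 in exposed cells, 1.22-fold higher. The dimmer ones gave 44.9 and 51.4, and 30 and 36. At signals under 100 the pooled SD over probe sets of a gene was 0.29, so these dim ones add little to the brightest. The 3 log2 differences, 0.28, 0.26 and 0.20, had a mean of 0.25 ± 0.05 (SD over 3 probe sets), and 34.7% of genes with at least 3 probe sets over both floors had all on 1 side. With all Ccnd2 probe sets lower and all Ccnd3 ones higher, their ranges could not overlap, so that is no further result. With 1 array each, this gap between the pair of cyclins could not be set against a spread between samples. The brightest probe set of Ccnd3 lay inside its like-signal range of -0.36 to 0.36.

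Ccnd1, the D cyclin of epithelial and other non-lymphoid cells, had 2 probe sets under the floor on both arrays, at 5.8 and 6.9, and at 3.6 and 3.2. The remaining probe set gave 11.2 in control cells, under the floor, and 18.6 in exposed cells, just over it. Read against the floor, that is at least 1.17-fold higher, a bound that rests on a signal close to the floor. At a lower floor, the 25th percentile, the same probe set gave a log2 difference of 0.73. Ccnd1 transcripts were therefore not read above the floor on the control array, and barely so on the exposed array.

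The promoter of Ccnd3 is shown because this gene and Cdkn1b had the highest positive differences among members read on both arrays. It is the window of 250 bases before to 50 after the second of 2 start sites that RefSeq lists (GRCm38.p6, chr17:47593217-47593516, plus strand), with the CCAAT box in capitals.
Ccnd3: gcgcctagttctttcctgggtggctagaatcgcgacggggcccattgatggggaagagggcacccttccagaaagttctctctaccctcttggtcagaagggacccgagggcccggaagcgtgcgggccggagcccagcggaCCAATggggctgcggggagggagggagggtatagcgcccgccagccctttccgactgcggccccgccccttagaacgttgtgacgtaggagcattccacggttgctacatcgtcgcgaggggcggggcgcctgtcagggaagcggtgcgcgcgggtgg
The window held 1 CCAAT box, as 37.4% of all 32851 promoter windows of this length did on either strand, and 2 GC boxes (GGGCGG, in 35.7% of windows). The first Ccnd3 window, not shown, held no CCAAT box.

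The kinases differed little. Cdk4, the catalytic partner of D cyclins in most cells, gave 1135 and 1206.4 with its brightest probe set, whose name ends in x, the mark of probes shared with other sequences. Its other probe sets gave 994.4 and 1063.6, and 843.1 and 793.8. They were higher on the exposed array in 2 cases and lower in 1, with a mean log2 difference of 0.03 ± 0.10 (SD over 3 probe sets). No direction can be read from Cdk4.

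Cdk6, the partner kinase most used in blood cells, gave 585.9 in control and 570.8 in exposed cells. Another probe set gave 511.4 and 488.6, and the dimmest gave 49 and 37.9. All 3 were lower on the exposed array, by log2 differences of -0.04, -0.07 and -0.37. Only the dim probe set gave a difference over 0.07 in size, and probe sets of 1 gene scatter more at low signal. The pooled SD over probe sets of a gene was 0.29 at signals under 100 and 0.14 at 500 or more.

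Cdk4 is a known target of the transcription factor Myc, which binds the E-box CACGTG, and its promoter is shown for that reason (GRCm38.p6, chr10:127063285-127063584, plus strand), with the E-boxes in capitals.
Cdk4: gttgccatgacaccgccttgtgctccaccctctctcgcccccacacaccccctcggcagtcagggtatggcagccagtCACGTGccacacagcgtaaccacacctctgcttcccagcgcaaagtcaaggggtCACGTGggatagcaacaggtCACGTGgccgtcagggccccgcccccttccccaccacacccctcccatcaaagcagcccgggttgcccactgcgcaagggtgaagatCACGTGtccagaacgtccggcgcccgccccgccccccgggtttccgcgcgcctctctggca
The window held 4 E-boxes, starting 172, 118, 98 and 11 bases before the start site. An E-box was found in 7.15% of all promoter windows, and 3 or more in 0.0883%. The Cdk6 window and the second Cdkn2c window, not shown, held 1 E-box each. The Myc transcript, named here after its value was seen, was 1.47-fold lower on the exposed array (1111.9 and 754.9), outside its like-signal range of -0.36 to 0.36 at a log2 difference of -0.56, while Cdk4 was within 1.07-fold by each of its probe sets. Myc rests on 1 probe set above the floor. The E-boxes are letters in a sequence, and whether a factor sat on them was not measured.

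**Figure D2:**
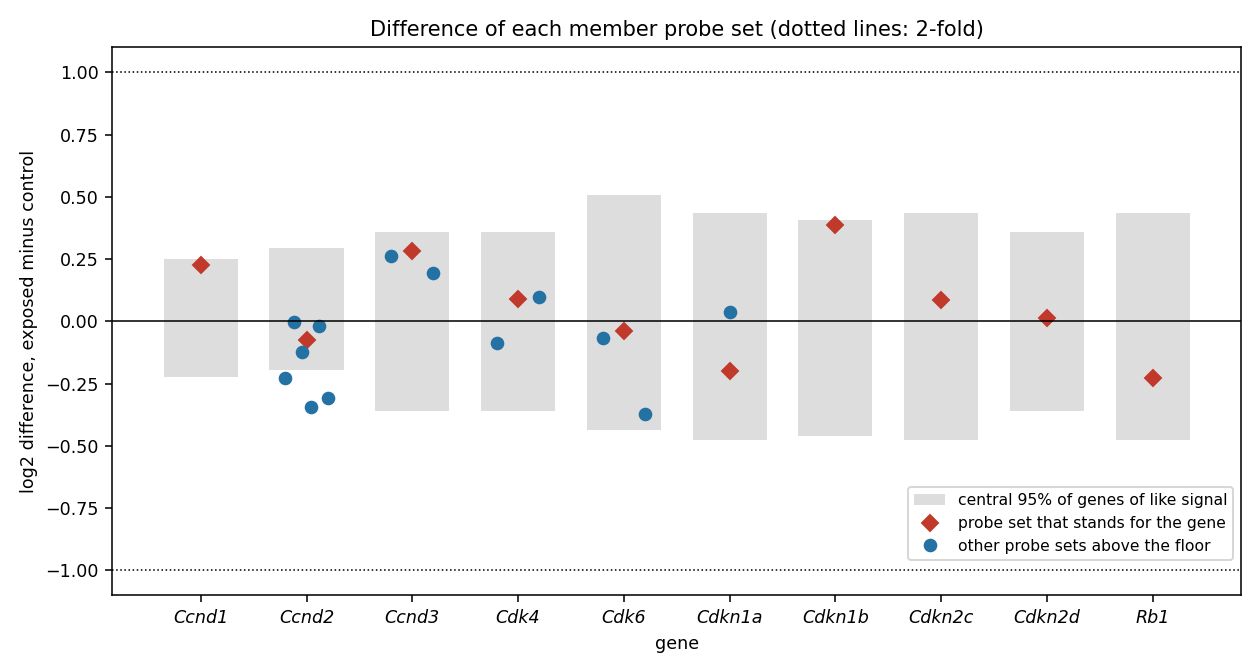
Log2 difference, exposed minus control, of each member probe set that cleared the floor on either array; the red diamond is the probe set that stands for the gene, blue points are its other probe sets, and the grey bar is the central 95% of differences of genes with signals like the diamond's. Every diamond lies in its bar and no point reaches the dotted 2-fold lines. Ccnd2 points run from -0.35 to -0.00, the lowest of them below its bar, and Ccnd3 points from 0.20 to 0.28.

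The inhibitors lay on both sides of 0. Cdkn1b, whose product p27 holds resting T cells out of the cycle, had the highest difference of the set. It gave 297 in control and 388.2 in exposed cells, 1.31-fold higher (log2 difference 0.39, near the upper end of its like-signal range of -0.46 to 0.41). This value rests on 1 probe set, since the other one was under the floor on both arrays, at 4.1 and 12.1. When both were averaged, the dim one counted as no difference, Cdkn1b gave 0.20.

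Cdkn1a, whose product p21 is induced by p53 and by T-cell activation, gave 461.9 in control and 402.7 in exposed cells, 1.15-fold lower. Its second probe set gave 64.6 and 66.3, on the other side of 0. The mean of the pair was -0.08 ± 0.17 (SD over 2 probe sets), so the direction of Cdkn1a was not settled by these probes.

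The INK4 genes were level. Cdkn2c, which encodes p18, a brake on lymphocyte division, gave 271.2 and 287.6, 1.06-fold higher in exposed cells. Cdkn2d, which encodes p19, gave 830.5 and 839.1, 1.01-fold higher, and the sign of this difference turned under quantile normalization (-0.0036). Each has 1 probe set. The other genes of the inhibitor families were near or under the floor: Cdkn2b gave 14.1 in control cells, under it, and 19 in exposed cells, just over it, Cdkn2a gave 4.6 and 5.8, and Cdkn1c gave 13 and 5.8.

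Rb1, the brake that Cdk4 and Cdk6 release, had the lowest difference of the set. It gave 433.7 in control and 370.8 in exposed cells, 1.17-fold lower (log2 difference -0.23, like-signal range -0.48 to 0.44). Its second probe set was under the floor on both arrays, at 12.5 and 9.1. The related pocket-protein gene Rbl1, itself a gene that E2F factors induce, was on the other side at 601.4 and 756, with both probe sets higher in exposed cells, and Rbl2 gave 382.2 and 401.6.

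Promoters of the Cip/Kip genes are shown because they have different known inputs, among them p53 for Cdkn1a and the CCAAT-binding factor NF-Y for Cdkn1b. Both lie on the plus strand of GRCm38.p6, Cdkn1a in the first of 2 listed windows at chr17:29090729-29091028 and Cdkn1b at chr6:134920151-134920450. Capitals mark matches to the p53 consensus decamer in Cdkn1a and CCAAT boxes, on either strand, in Cdkn1b.
Cdkn1a: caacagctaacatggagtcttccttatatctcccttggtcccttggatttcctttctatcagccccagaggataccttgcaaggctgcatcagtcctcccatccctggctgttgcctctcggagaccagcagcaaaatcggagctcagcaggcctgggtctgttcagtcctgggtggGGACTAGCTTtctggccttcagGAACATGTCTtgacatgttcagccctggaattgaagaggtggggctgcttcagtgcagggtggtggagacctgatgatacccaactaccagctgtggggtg
Cdkn1b: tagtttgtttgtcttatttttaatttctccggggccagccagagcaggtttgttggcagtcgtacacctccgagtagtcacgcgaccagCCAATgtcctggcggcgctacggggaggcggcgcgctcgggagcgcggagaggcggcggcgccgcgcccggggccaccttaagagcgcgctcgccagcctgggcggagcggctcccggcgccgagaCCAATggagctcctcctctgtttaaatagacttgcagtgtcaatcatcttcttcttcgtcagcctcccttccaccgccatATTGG
The Cdkn1a window held 2 matches to the p53 consensus decamer, and 8.36% of all windows held at least 1. The second Cdkn1a window, not shown, held none, and the Cdkn2d window, also not shown, held 1. The Cdkn1b window held 3 CCAAT boxes, and 3.37% of all windows held 3 or more. The search covered both strands of all 10 windows listed for 7 of the 10 members and also took TATA boxes (TATAA, in 24.9% of all windows), the FOXO site TGTTTAC (3.65%), the STAT site TTCNNNGAA (8.3%) and the E2F sites TTTGGCGC (0.514%) and TTTCCCGC (1.07%). Overlapping matches were counted separately. Neither E2F form nor the STAT site was found in any member window, and the FOXO site was found in 1, the first window of Ccnd3. TATA boxes were found in the Cdk6 window and in both Cdkn1a windows. These are statements on letters in short windows only.

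The genes around this set were then read as lists. Partners of the G1/S step, the point at which cyclin E and Cdk2 take over, cleared the floor in 13 of 15 cases. Of these 9 had a positive and 4 a negative difference, none was past 1.5-fold, and the median was 0.10. Ccna2, the cyclin of S phase, gave 1161.3 in control and 1489.5 in exposed cells, 1.28-fold higher by the brighter of 2 probe sets that were both higher. Its log2 difference of 0.359 was just over the upper end of its like-signal range, 0.357. Ccnh, the cyclin of the CDK-activating kinase, gave 1081.7 and 961.9, and Cdc37, a chaperone that folds Cdk4, gave 1202.9 and 1155.3.

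E2F factors and their partners had 4 positive and 6 negative differences and a median of -0.06, which was 0.12 without probe sets shared between transcripts and 0.09 with averaged probe sets. Tfdp1, the common partner of E2F factors, gave 1574.5 and 1469.2, the activator E2f2 gave 272.6 and 297.5, and the repressor E2f6 gave 260.4 and 197.8, 1.32-fold lower.

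Genes that break down p27 and D cyclins had a median of 0.06, with 9 positive and 6 negative of 15. Cks1b, the cofactor that brings p27 to its ubiquitin ligase, gave 2669.9 and 2603.5. Its relative Cks2 gave 2316.8 and 2427, and Cops5, a signalosome subunit that binds p27, gave 1282.5 and 1302.9. The ligase subunit Skp2, named here after its value was seen because it acts on p27, gave 134.5 and 179.4, 1.33-fold higher, and 5 of its 6 probe sets were higher in exposed cells.

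Among the transcripts that act above D cyclins, 7 of 17 differences were positive and 10 negative, with a median of -0.04. Il2, the T-cell growth factor, was the 1 gene past 2-fold, with 39.8 on the control array against a value below the floor (14.3) on the exposed one, so at least 2.49-fold lower. Il2ra, the inducible chain of its receptor, gave 1200.7 and 1482.4, 1.23-fold higher. The kinase Pim2 gave 1491.9 and 1455.9, and Ctnnb1, which encodes beta-catenin, gave 1474.6 and 1437.5.

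Genes of quiescence had a median of 0.05, with 9 positive and 7 negative of 16. The antiproliferative gene Btg1 gave 2908.6 and 2548.6, with all 3 probe sets lower in exposed cells. Ccr7, the lymph-node homing receptor, gave 1393.4 and 1349.2, and Slfn2, which keeps T cells quiescent, gave 1480.2 and 1423.6. Targets of p53 other than Cdkn1a had 7 positive and 12 negative differences of 19 and a median of -0.09. Ccng1 gave 1863.2 and 1746.7, Trp53inp1 gave 1116.8 and 1319.1, and Ei24 gave 538.8 and 460.5.

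Downstream of the G1 set, genes of the later phases leaned slightly to the exposed side. S-phase genes had 19 positive and 4 negative differences of 23 and a median of 0.09, with none past 1.5-fold. Pcna, the sliding clamp of DNA polymerase, gave 5118.4 and 5294.1, the helicase subunit Mcm7 gave 2875 and 2825.9, and Rrm2, which makes deoxynucleotides, gave 2469.3 and 2791.5 with all 3 probe sets higher. Mitosis genes had 17 positive and 4 negative of 21 and a median of 0.09. Cdc20, which starts anaphase, gave 1500.8 and 1765.2, Top2a gave 2264.7 and 2357.1, and Ube2c gave 1727.2 and 1734.2. These medians are beside -0.01 over all genes compared, of which 48.2% had a positive difference, and are a description of 2 arrays. The like-signal range of the brightest genes, Pcna, Mcm7 and Rrm2 among them, itself lay more to the positive side, from -0.19 to 0.30. The part of signal level in this lean was not tested. No list of cell-cycle genes, the G1 set included, held a member past 1.5-fold.

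**Figure D3:**
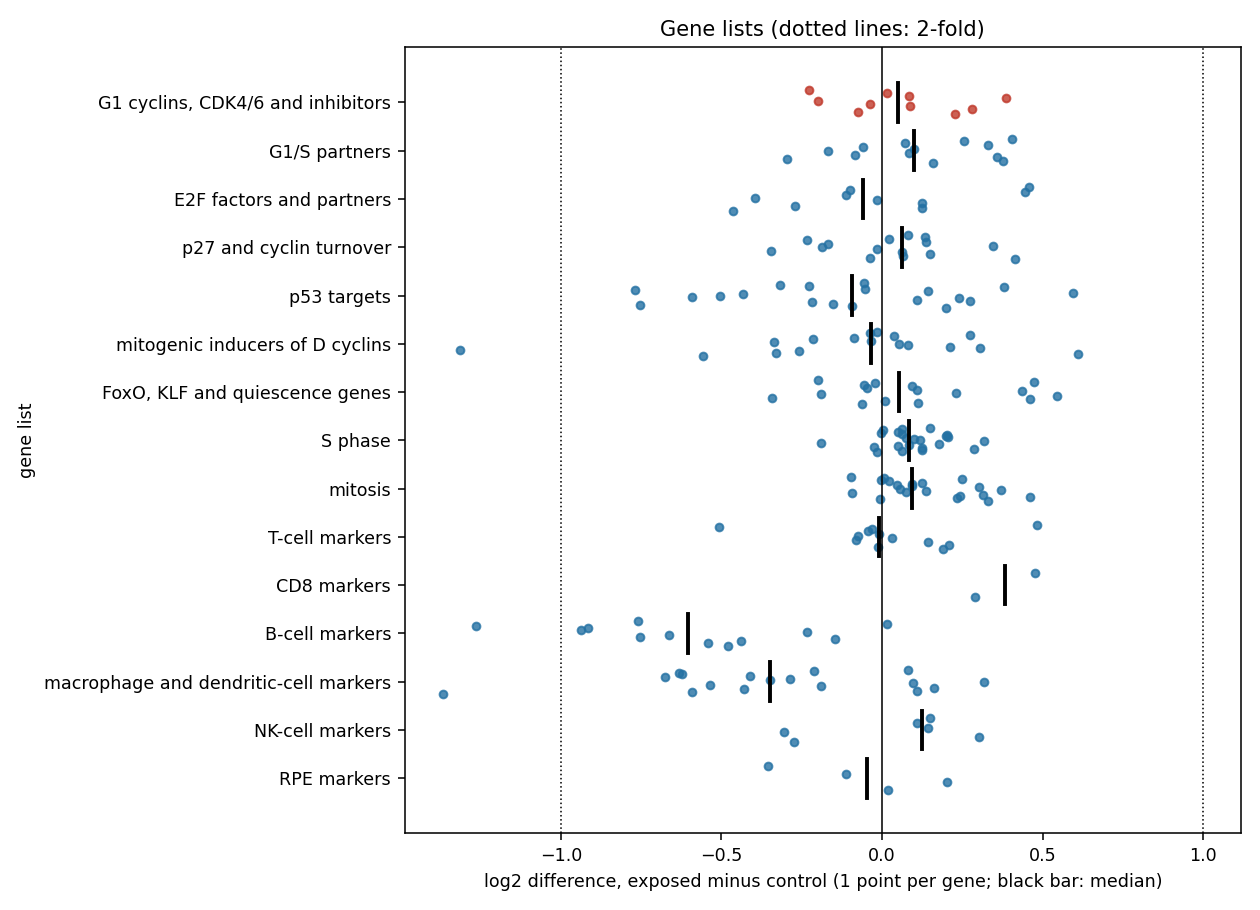
Log2 difference, exposed minus control, of every gene in each list that cleared the floor on either array, 1 point per gene, with the list median as a black bar; the 10 G1 genes are red. The G1 genes lie between -0.23 and 0.39 around a median of 0.05, the S-phase and mitosis medians are both at 0.09, and B-cell markers centre on -0.60.

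**Figure D4:**
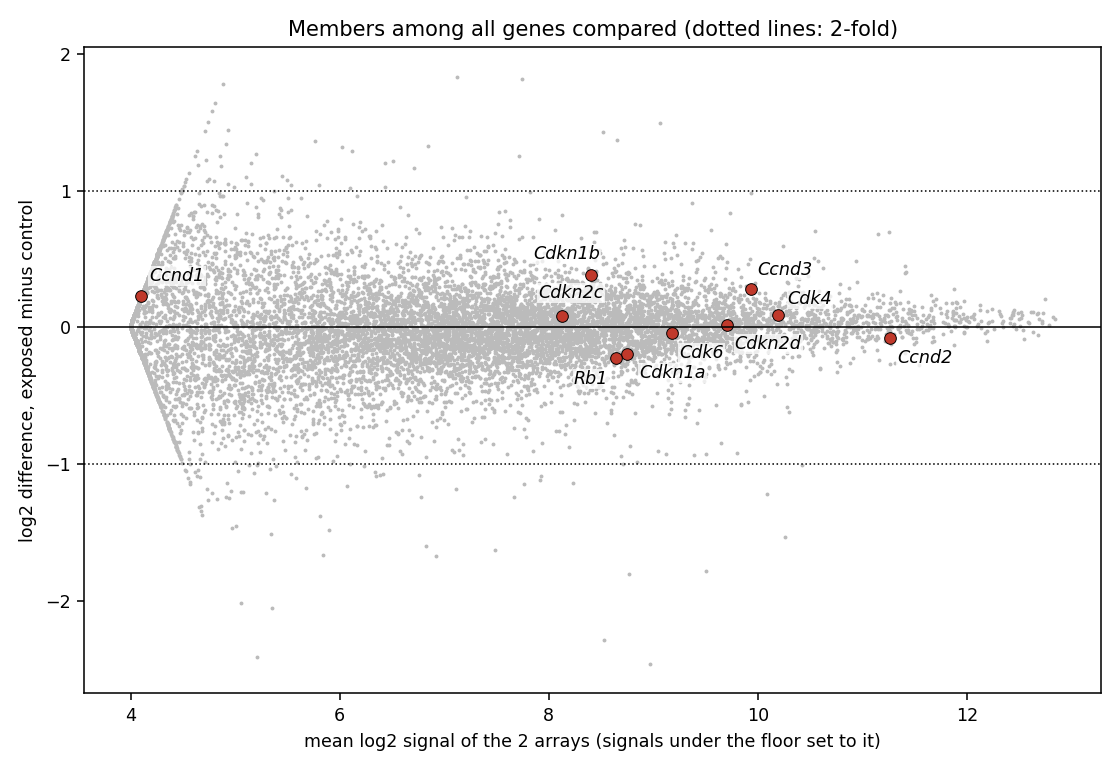
Log2 difference against mean log2 signal for all 11021 genes compared (grey) with the 10 G1 genes in red and named; the edges at the left come from the floor. Ccnd1 sits on that edge, and the other 9 lie among genes of like signal, from -0.23 for Rb1 to 0.39 for Cdkn1b.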

How the data were processed

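RNA of 1 control and 1 RPE-exposed T-cell sample was labelled with biotin and hybridised to 1-colour Affymetrix arrays, per the labels' protocols. The deposited values are linear intensities, 1 per probe set. Their mean, trimmed by 2% of probe sets at each end, is 100 on both arrays, so they had been scaled before they were deposited. Not given in the sources used here are the summarization software, detection calls and genome build.

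Of 45101 probe sets, 64 were controls, 34945 others named exactly 1 gene by the platform annotation, 932 named several and 9160 had no listed gene. All 10 members matched the RefSeq gene table by gene identifier. No probe set named a member among several genes.

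Log2 differences were computed from the deposited intensities with pandas 2.3.3 and numpy 2.4.6 under Python 3.11.15, and figures were drawn with matplotlib 3.10.9. Signals under the floor, the 50th percentile of each array, were set to it, and genes above it on at least 1 array were compared. A gene's value is that of its brightest probe set (mean log2 signal of both arrays). The like-signal range is the central 95% of log2 differences in the same of 20 level bins. The steps were tested on simulated data with shifts larger than any member difference, so that test does not bear on small differences. Promoter windows are from RefSeq, build GRCm38.p6. No motif or position there comes from the array.

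The members and gene lists were chosen with earlier results of these data known. In each list the 3 genes of highest mean signal and any gene past 2-fold are named, relatives of a member and defining markers are named for that relation, and others named outside the rule are marked in the text. With 2 arrays no likeness of pattern between genes can be defined, so none is given. Alternatives were other floors, scalings, an offset and other ways to pick probe sets. Array signals give no levels that can be ranked between genes.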

Additional observations from a re-analysis of the deposited data

How the results depend on the processing

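No member was past 2-fold under any of the 8 alternative settings, and their median log2 difference stayed between 0.01 and 0.05. Of 79 recomputed differences of single members, 77 lay within 0.24 of the main value, the pooled SD over probe sets of a gene. The other 2 were Ccnd1 at 0.73, when the floor was lowered to the 25th percentile or to a signal of 1, and at a floor of the 75th percentile Ccnd1 could not be compared. The sign turned once, for Cdkn2d (-0.0036 after quantile normalization). All members but Ccnd1 had signals over every floor used, so the floor settings could not move them. The 0.24 is also larger than most of the member differences, so lying within it says little about their direction. With all probe sets averaged, Cdkn1b gave 0.20, Rb1 -0.11, Ccnd2 -0.16 and Cdk6 -0.16. All 111 recomputed list medians moved by less than 0.24, and 6 had another sign, 3 of them for E2F factors. Counts over all genes depended on the floor: 48 higher and 69 lower by 2-fold became 683 and 611 at the 25th percentile, 6 and 16 at the 75th, and 1587 and 1443 with no floor. They were 34 and 38 with an offset of 16, and 23 and 54 with averaged probe sets. No paired analysis was possible because each group has 1 array, and for the same reason no replicate could be left out. Signals near the floor, Ccnd1 above all, limit what these arrays can show.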

Other observations

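Some genes next to the G1 set were picked out after their values were seen and are given as values only. Among p53 targets, Plk2 was 1.71-fold lower on the exposed array (71.3 and 41.8), Gadd45a 1.69-fold lower (29 and 17.2) and Zmat3, an RNA-binding regulator of p53 output, 1.51-fold lower (216.1 and 143.3). Perp, a p53-induced membrane gene, was at least 1.51-fold higher (15.5, under the floor, and 24), and Mdm2, which degrades p53, gave 255 and 292.6. Plk2 and Gadd45a lay inside their like-signal ranges and Zmat3 outside its range of -0.53 to 0.54. In the E2F list the activator E2f1 gave 152 and 110.2, with its 2 probe sets on opposite sides of 0, and the late repressor E2f8 gave 138.7 and 188.7, with both of its probe sets higher. Cyclin E2, Ccne2, gave 243.5 and 316.2, and its kinase partner Cdk2 gave 911.5 and 742.8, each from 1 probe set above the floor. Of the quiescence genes, Klf2 gave 312.3 and 429.9, S1pr1, a receptor gene that KLF2 induces, gave 139.8 and 189.2, and the antiproliferative gene Tob1 gave 131.6 and 192. Klf2 and Tob1 lay just outside their like-signal ranges, at 0.461 against 0.436 and 0.545 against 0.530, and S1pr1 inside its range. Klf2, S1pr1 and Tob1 each rest on 1 probe set above the floor. They are from the higher side of a list with 9 positive and 7 negative differences. On the lower side, Klf6 gave 253.3 and 199.7 with all 4 probe sets lower, and Bach2 gave 1085.6 and 944.6 with all 3 lower.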
